A study of Mus musculus with 42 samples.

Results

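The receptors described here are 43 mouse odorant receptors (ORs) with names between Olfr466 and Olfr520, out of 1088 intact ORs counted in the study. They were chosen by name, with earlier results of these data known. Every OR whose name is Olfr and a whole number in that range was taken, without Olfr506 and without pseudogenes. In the GENCODE M21 annotation of GRCm38, 41 of the 43 lie in one stretch of chromosome 7, chr7:107812263-108894420, which is 1082.2 kb long and holds 20 of them on the plus and 21 on the minus strand. The other 2 lie elsewhere: Olfr466 on chromosome 13 (chr13:65150240-65156152, plus strand) and Olfr520 further up on chromosome 7 (chr7:99730273-99736399, plus strand). Where the cluster is named below, the 41 are meant.

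Receptor activity was read by pS6-IP-Seq, in which ribosomes that carry phosphorylated ribosomal protein S6, a mark of recently active neurons, are precipitated and their RNA is sequenced. The animals were C57BL/6 mice (C57BL/6J in the study's methods), 20 to 22 days old, of both sexes, exposed to ACT (acetophenone) or to TMT (2,5-dihydro-2,4,5-trimethylthiazoline) at starting concentrations of 0.01%, 0.1%, 1% or 100%, or to no odor, after a period of habituation without odor. Each group held 3 mice, and mice with the same replicate number were same-sex littermates. Each odorant had 2 sets of no odor mice, one shared by 0.01% and 0.1% and one by 1% and 100%, so doses of one set share their controls. A second experiment sequenced RNA of dorsal and of ventral olfactory mucosa with 3 libraries each. For it the study used 3 mice, of the same strain and age.

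Mouse ORs fall into class I, most of whose genes form a single cluster on chromosome 7, and class II, which is spread over many clusters. The chromosome 7 genes described here are grouped as a class II cluster, and for 2 of them, Olfr503 and Olfr504, the sequences go against that name. Their proteins are 93.5% identical to Olfr658 and 92.2% to Olfr657, genes within the class I range Olfr543 to Olfr692, and at most 33.9% to any other member. The other 41 members reach 30.4% to 36.05% with their nearest gene of that range. An olfactory sensory neuron expresses 1 OR gene, and neurons that use a given OR are confined to a zone of the epithelium, with class I and a part of class II in the dorsal zone. Activity of a neuron raises phosphorylation of S6, so the RNA of the OR it uses becomes more frequent in the precipitate. In bulk libraries of this kind fewer cells of a type and less RNA per cell cannot be told apart. Upstream of many OR genes lie sites of the Olf1/EBF family and of homeodomain factors such as Lhx2, which take part in the expression of many ORs.

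A window of 250 bases before the annotated start was read from GRCm38 for the 30 members whose transcripts start at least 50 bases before the start codon, and 13 members have no such window. The 150 bases next to the start are printed for 6 of them, because the odor and zone results turn on these genes: Olfr467, Olfr478, Olfr490, Olfr491 and Olfr502 rose with 100% TMT, and Olfr477 is the last gene of a ventral stretch that ends next to Olfr478. The windows are chr7:107812113-107812262 (plus strand) for Olfr467, chr7:107986543-107986692 (plus) for Olfr477, chr7:108033990-108034139 (minus) for Olfr478, chr7:108288935-108289084 (minus) for Olfr490, chr7:108313301-108313450 (plus) for Olfr491 and chr7:108525066-108525215 (minus) for Olfr502. Each is written 5′ to 3′ on the strand of its gene, and capitals mark CCCNNGGG (Olf1/EBF type), TAATTA and TAATGA (homeodomain type) on either strand.
Olfr467: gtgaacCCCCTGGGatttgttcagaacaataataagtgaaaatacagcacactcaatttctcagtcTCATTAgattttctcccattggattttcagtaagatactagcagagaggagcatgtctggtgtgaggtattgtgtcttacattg
Olfr477: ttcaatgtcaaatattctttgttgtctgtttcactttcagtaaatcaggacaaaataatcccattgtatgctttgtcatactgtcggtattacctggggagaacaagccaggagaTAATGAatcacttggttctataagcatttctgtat
Olfr478: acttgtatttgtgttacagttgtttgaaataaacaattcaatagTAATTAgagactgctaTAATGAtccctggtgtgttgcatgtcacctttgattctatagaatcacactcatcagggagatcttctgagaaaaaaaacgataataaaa
Olfr490: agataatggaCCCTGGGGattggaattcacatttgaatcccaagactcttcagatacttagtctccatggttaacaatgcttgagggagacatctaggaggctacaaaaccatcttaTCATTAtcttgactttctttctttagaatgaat
Olfr491: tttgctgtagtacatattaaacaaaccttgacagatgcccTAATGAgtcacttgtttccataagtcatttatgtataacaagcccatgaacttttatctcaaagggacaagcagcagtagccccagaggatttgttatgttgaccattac
Olfr502: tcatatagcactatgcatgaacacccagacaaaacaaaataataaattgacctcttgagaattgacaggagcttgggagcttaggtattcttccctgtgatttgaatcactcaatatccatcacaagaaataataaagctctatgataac

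The Olfr478 window holds TAATTA at 106 and TAATGA at 90 bases before the start, and that of Olfr491 holds TAATGA at 110. The Olfr467 window holds CCCNNGGG at 144 and TAATGA at 84, that of Olfr490 CCCNNGGG at 140 and TAATGA at 33, and that of Olfr477 TAATGA at 35. None of the 3 words occurs in the Olfr502 window. Over the full 250 bases, TAATGA was found in 21 of 30 member windows (70%) and in 336 of the 1002 windows of all ORs (33.5%), members included. TAATTA was found in 10 member windows (33.3%), against 23.7% of all OR windows, and CCCNNGGG in 6 (20%), against 14.5%. The member windows are not independent of each other, since the genes are copies of one another, and a match is a word in the sequence and not a measured site. Olfr467 and Olfr477, which were higher in opposite zones, each have TAATTA and TAATGA within their 250 bases.

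The 43 receptors are 306 to 342 residues long, as translated from the annotation. Identity over the 903 pairs had a median of 51.1% and ran from 24.24% to 95.86%. The nearest relative of a member shared a median of 85.8% of its residues. Linking proteins that share at least 60% gave 1 group of 30 members, a second of 6 (Olfr512, Olfr514 and Olfr516 to Olfr519), the pair Olfr479 and Olfr509, and the 5 single genes Olfr466, Olfr503, Olfr504, Olfr513 and Olfr520. At 70% the group of 30 split into 20 members and 10 members, the 10 being Olfr467, Olfr472, Olfr473, Olfr474, Olfr476, Olfr477, Olfr480, Olfr481, Olfr491 and Olfr508.

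The likeness extends to the transcripts, which limits how well short reads can be assigned. In 6 pairs the proteins were at least 90% identical: Olfr486 and Olfr487, Olfr469 and Olfr470, Olfr476 and Olfr477, Olfr516 and Olfr519, Olfr472 and Olfr473, and Olfr495 and Olfr498. Their longest identical runs of transcript were 240 bases for Olfr486 and Olfr487, 212 for Olfr469 and Olfr470, 179 for Olfr476 and Olfr477, 153 for Olfr516 and Olfr519, 110 for Olfr495 and Olfr498 and 59 for Olfr472 and Olfr473. Reads were 50 bases long, and 41 of 43 members share at least 1 stretch of 50 bases with another annotated gene, Olfr508 and Olfr513 being the exceptions. The counts are estimates that divide such reads between genes, so values of the members of these pairs are uncertain with respect to each other. Of the members that rose with TMT, Olfr490 and Olfr502 share a run of 80 bases, Olfr478 and Olfr490 one of 61, Olfr478 and Olfr502 one of 47. Olfr491, another riser, shares 6 stretches of 50 bases with the riser Olfr502, a pair whose longest run was not measured. It also shares a run of 68 bases with Olfr477, which did not rise.

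**Figure D1:**
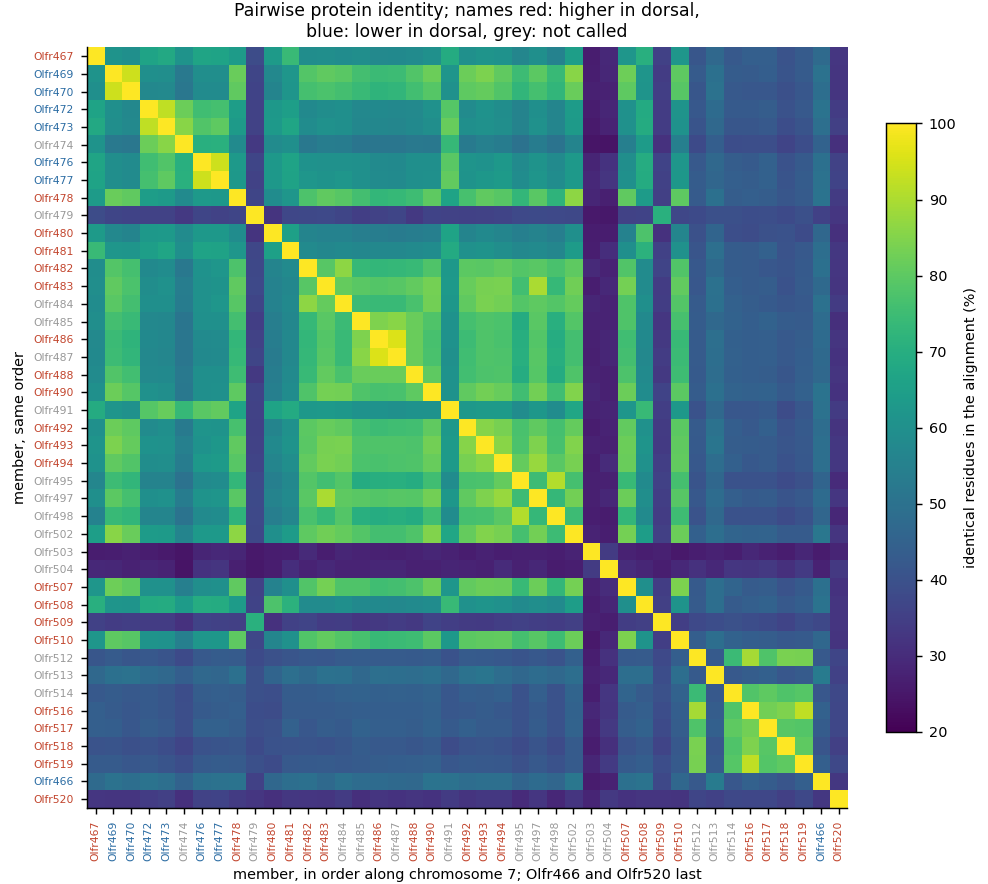
Pairwise identity of the 43 receptor proteins, in percent of alignment columns, with members in order along chromosome 7 on both axes and Olfr466 and Olfr520 last. Names are coloured by the comparison of dorsal with ventral mucosa; identity ran from 24.24% to 95.86%, and the 6 pairs at 90% or more lie at most 3 places apart along the chromosome.

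OR counts per library ran from 37012 to 128805 in the 36 pS6-IP-Seq libraries (median 66805) and from 155319 to 242123 in the 6 mucosa libraries (median 181603). Values below are normalized counts per 100000 OR counts, with the 2 experiments scaled separately, so levels cannot be set against each other between them. One library stands apart, that of the 0.01% ACT mouse of litter 1: of 36 libraries it held the highest value for 109 ORs (10.0%) and for 7 of the 43 members. The 100% ACT mouse of litter 3 held the highest value for 107 ORs (9.83%) and for 6 members, while each of the other 34 held it for 8 to 63 ORs and 0 to 3 members. As a check of the dissection, class I ORs (Olfr543 to Olfr692) were higher in dorsal mucosa for 110 of 114 genes and lower for 0. They took 31.1%, 24.8% and 32.7% of OR counts in the dorsal libraries, against 2.08%, 3.36% and 3.36% in the ventral libraries. Dorsal library 2 thus had the lowest class I share of the 3 dorsal libraries.

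The members included receptors of both zones. In dorsal against ventral mucosa, 21 of 43 members were higher in dorsal and 7 lower (adjusted p below 0.05, edgeR's quasi-likelihood test with Benjamini-Hochberg adjustment over all ORs), and 15 did not pass. Of the 1087 ORs listed for the mucosa, 37.4% were higher and 37.2% lower in dorsal libraries. The median log2 fold change of the members was 0.81, against -0.65 over all ORs. Without TMM scaling both medians were lower, 0.21 for the members and -1.24 over all ORs, and the calls were 18 higher and 10 lower.

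The ventral members lay together at one end. Of the 8 members from Olfr467 to Olfr477, 6 were lower in dorsal mucosa (Olfr469, Olfr470, Olfr472, Olfr473, Olfr476 and Olfr477), Olfr474 had too few counts to pass, and Olfr467, the outermost gene, was higher. Of the 33 members from Olfr478 to Olfr519, 19 were higher, 14 did not pass and 0 were lower at an adjusted p below 0.05, and edgeR also gave 0 of the 33 as lower at an unadjusted p below 0.05. DESeq2 also called 0 of these 33 lower, while Olfr498 was called lower without TMM, with the likelihood ratio test, without the replicate block and without libraries 2, Olfr487 in 3 of these 4 fits, and Olfr491 without TMM. The median log2 fold change was -2.16 in the first stretch and 1.77 in the second, and 37.2 kb separate Olfr477 from Olfr478. The boundary was set at the last gene called lower, so the 0 lower calls beyond it follow from that choice, and both medians depend on it. Genes of 1 cluster are not replicates, and the order is given as a description of where the calls fell.

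Olfr472 had 28.3, 91.7 and 8.80 normalized counts in the dorsal libraries, against 178.8, 145.0 and 145.1 in the ventral libraries. Olfr477 had 10.1, 23.7 and 4.74 in dorsal, against 48.6, 45.6 and 58.5 in ventral mucosa. Olfr476, its closest relative, had 3.54, 15.0 and 1.35 in dorsal, against 31.6, 37.9 and 22.2 in ventral mucosa. For none of the 3 did the groups overlap, and dorsal library 2 was the highest dorsal library each time. The log2 fold changes were -2.42 ± 0.74 (SE, adjusted p = 0.0106) for Olfr472, -2.20 ± 0.66 (0.00922) for Olfr477 and -2.62 ± 0.67 (0.00349) for Olfr476, with 3 libraries per group. Olfr466, the member on chromosome 13, was lower in dorsal mucosa as well, with 13.6, 36.2 and 5.42 in dorsal, against 93.3, 81.3 and 86.2 in ventral libraries (log2 fold change -2.58 ± 0.69, adjusted p = 0.00493). Over the 7 ventral members the size of the change ran from 1.62 to 2.62 on the log2 scale.

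On the other side of the gap Olfr478 had 154.5, 101.0 and 170.6 in dorsal, against 8.74, 16.4 and 13.1 in ventral libraries. Olfr488, which had the most counts of all members in these 6 libraries, had 672.7, 436.4 and 835.4 in dorsal, against 40.8, 64.1 and 68.5 in ventral mucosa. Olfr490 had 56.1, 43.02 and 67.7 in dorsal, against 2.92, 3.44 and 2.52 in ventral mucosa. Each of these genes was many times higher in every dorsal library than in any ventral one. Their log2 fold changes were 3.48 ± 0.62 (adjusted p = 2.79e-04) for Olfr478, 3.47 ± 0.57 (1.82e-04) for Olfr488 and 4.17 ± 0.63 (1.52e-04) for Olfr490. Olfr492, with 21.2, 13.7 and 20.3 in dorsal, against 0.972, 0 and 2.02 in ventral libraries, had the largest fitted change, 4.31 ± 0.83 (adjusted p = 5.16e-04), which rests on few ventral counts. Olfr467 resembled the second stretch: it had 121.2, 76.1 and 162.5 in dorsal, against 6.801, 13.3 and 17.6 in ventral mucosa (3.26 ± 0.62, adjusted p = 4.09e-04). Olfr520, outside the cluster, was higher in dorsal mucosa too, with 21.7, 13.7 and 16.9 in dorsal, against 2.43, 3.01 and 1.51 in ventral libraries (2.87 ± 0.67, adjusted p = 0.00184).

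Zone and protein likeness did not line up throughout. In the group of 6 around Olfr512 to Olfr519, 4 members were higher in dorsal mucosa (Olfr516 to Olfr519) and 0 lower, with Olfr512 and Olfr514 not called. The group of 30 held 15 higher and 6 lower members. Its 10 members linked at 70% held 4 that were higher (Olfr467, Olfr480, Olfr481 and Olfr508) and 4 that were lower (Olfr472, Olfr473, Olfr476 and Olfr477). Of the 6 near-identical pairs, 3 had both genes lower in dorsal mucosa, Olfr516 and Olfr519 were both higher, Olfr495 and Olfr498 were both not called, and Olfr486 was higher while Olfr487 was not called. Olfr486 had 21.2, 14.3 and 19.6 in dorsal, against 6.32, 3.87 and 6.05 in ventral libraries (1.76 ± 0.58, adjusted p = 0.0143), and Olfr487 had 37.4, 49.3 and 26.4 in dorsal, against 82.1, 60.7 and 74.1 in ventral libraries (-0.97 ± 0.57, adjusted p = 0.134). Whether the pair differs in zone was not tested. Of the 5 single genes, Olfr466 was lower and Olfr520 higher in dorsal mucosa, Olfr503 and Olfr504 had almost no counts, and Olfr513 had 15.7, 13.1 and 25.7 in dorsal, against 32.1, 28.4 and 20.7 in ventral libraries (-0.61 ± 0.56, adjusted p = 0.329).

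All 21 higher and all 7 lower members had groups that did not overlap, as did 1 and 3 of the 15 members that were not called, against 39.4% of all ORs without overlap on the higher and 49.0% on the lower side. Dorsal library 2 held the lowest dorsal value in 21 of 21 higher members and the highest dorsal value in 7 of 7 lower members, which goes with its low class I share; its part in the results was not tested. Without both libraries of number 2, 21 members were higher and 8 lower. Without those of number 1, 16 were higher and 0 lower (2 lower at an unadjusted p below 0.05), and without those of number 3, 17 were higher and only Olfr476 was lower. Over all ORs the lower calls went to 205 without number 1 and to 201 without number 3, in place of 404. Every called member kept its direction in each of these fits.

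**Figure D2:**
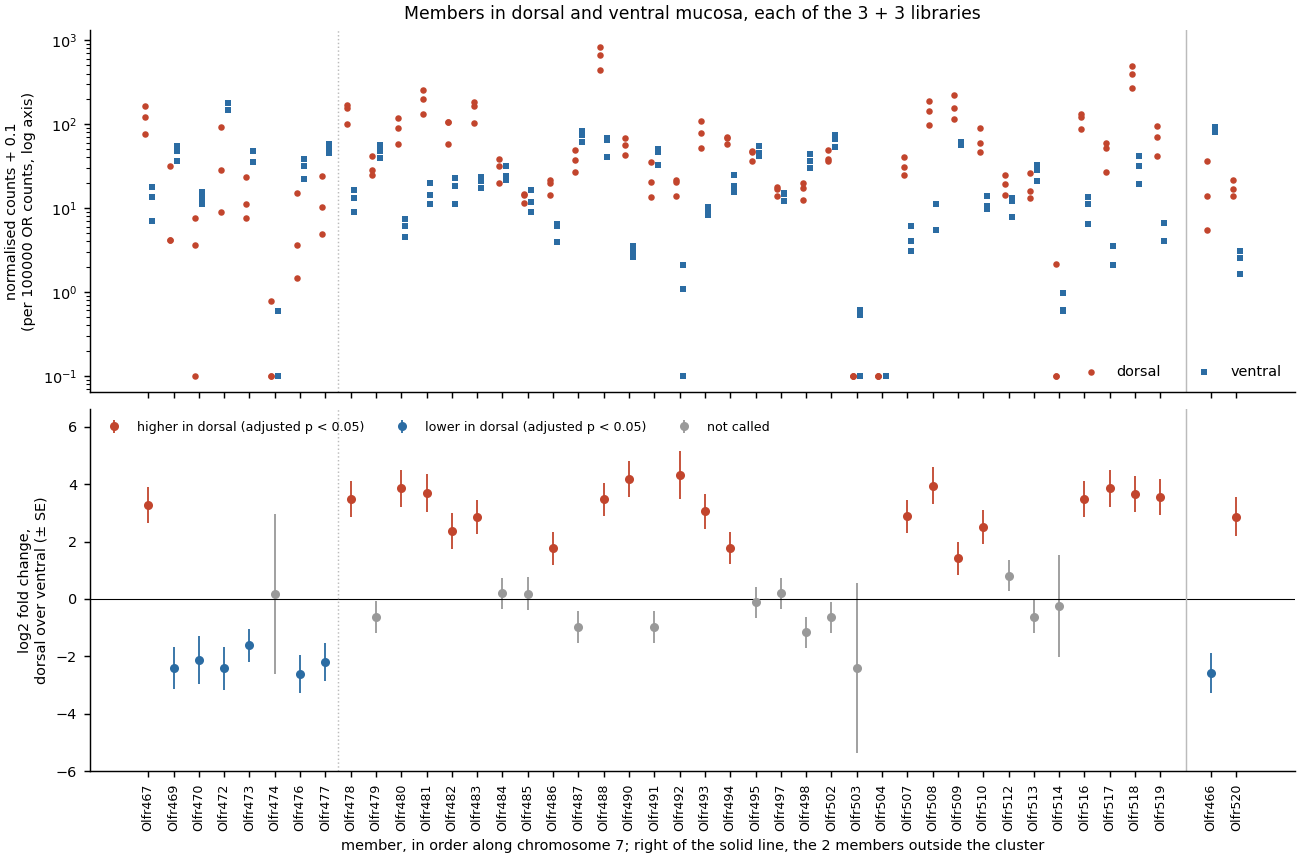
Upper panel: normalized counts plus 0.1 per 100000 OR counts, log axis, of each member in the 3 dorsal and 3 ventral libraries, in order along chromosome 7. Lower panel: log2 fold change of dorsal over ventral mucosa with its SE; the 6 lower members of the cluster lie between Olfr469 and Olfr477, and 19 of the 33 members from Olfr478 onward are higher.

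With 100% TMT, 5 of 43 members rose and 0 fell against no odor littermates (adjusted p below 0.05). Over all 1088 ORs 11.6% rose and 3.31% fell, so the members' share of risers is close to that of all ORs, and their median log2 fold change was -0.07 against -0.08 over all ORs. At an unadjusted p below 0.05, 4 members and 97 of the 1088 ORs were lower. DESeq2 also called 0 members lower. The risers were Olfr490, Olfr478, Olfr502, Olfr467 and Olfr491. Of the risers, 3 were among the 21 dorsal members (Olfr467, Olfr478 and Olfr490), 0 among the 7 ventral members and 2 (Olfr491 and Olfr502) among the 15 members not called for zone. The share of risers by zone over all ORs was not worked out, and whether rising goes with zone was not tested.

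Olfr490 had 57.8, 74.7 and 63.9 normalized counts with 100% TMT, against 7.59, 6.46 and 19.4 without odor. Olfr478 had 68.1, 101.6 and 195.2 with 100% TMT, against 42.5, 34.4 and 14.6 without odor. Olfr502 had 90.8, 99.6 and 115.0 with 100% TMT, against 34.9, 38.7 and 17.0 without odor. In these 3 genes every TMT mouse was above every no odor mouse. The log2 fold changes were 2.56 ± 0.52 for Olfr490 (adjusted p = 2.23e-05), 1.79 ± 0.38 for Olfr478 (4.2e-05) and 1.70 ± 0.40 for Olfr502 (2.86e-04), with 3 mice per group and higher values in 3 of 3 litters.

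Changes in the other 2 were smaller. Olfr467 had 99.0, 95.4 and 105.8 with 100% TMT, against 53.1, 58.1 and 31.6 without odor, again without overlap (1.04 ± 0.36, adjusted p = 0.0290). Olfr491 had 206.3, 307.0 and 403.3 with 100% TMT, against 144.3, 120.5 and 282.0 without odor, and here the groups overlapped (0.73 ± 0.27, adjusted p = 0.0474). Both calls were lost with DESeq2, without TMM, without the replicate block (3 risers in place of 5) and without any 1 litter. The call of Olfr478 was lost without litter 3 (adjusted p = 0.189), in which the gene was highest with TMT and lowest without odor, and Olfr490 and Olfr502 passed in every fit tried.

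The balance of directions depended on scaling. Without TMM, 3 members rose and 4 fell (Olfr472, Olfr477, Olfr516 and Olfr518), as over all ORs 105 rose and 101 fell in place of 126 and 36, with the median of all ORs at -0.32. With TMM none of the 4 passed. Olfr518 came nearest, with 88.7, 188.8 and 118.6 with 100% TMT, against 226.3, 144.2 and 250.4 without odor (-0.72 ± 0.27, adjusted p = 0.0524). Olfr477 followed, with 148.5, 195.0 and 293.8 with 100% TMT, against 306.8, 221.7 and 486.2 without odor (-0.70 ± 0.27, adjusted p = 0.0591). Both were lower than the littermate in at least 2 of 3 litters, and their groups overlapped. Without litter 2, 3 members fell (Olfr472, Olfr477 and Olfr518) and 33 of all ORs, and without litter 1, Olfr483 fell and 8 of all ORs. Without litter 3, 0 members fell and 9 of all ORs. For Olfr472 the no odor mouse of litter 3 stood far above the other 2 of its group, with values given below. The likelihood ratio test called Olfr492 lower (fitted change -4.49, adjusted p = 0.0262) among 44 of all ORs; it had 0 in all 3 mice with 100% TMT, against 9.11, 2.15 and 4.86 without odor.

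Counted by litter, 5 members were above the littermate in 3 of 3 litters (21.4% of all ORs were) and 9 below in 3 of 3 (20.5% of all ORs). The groups did not overlap for 4 members on the higher side (15.7% of all ORs) and 3 on the lower side (10.6%).

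**Figure D3:**
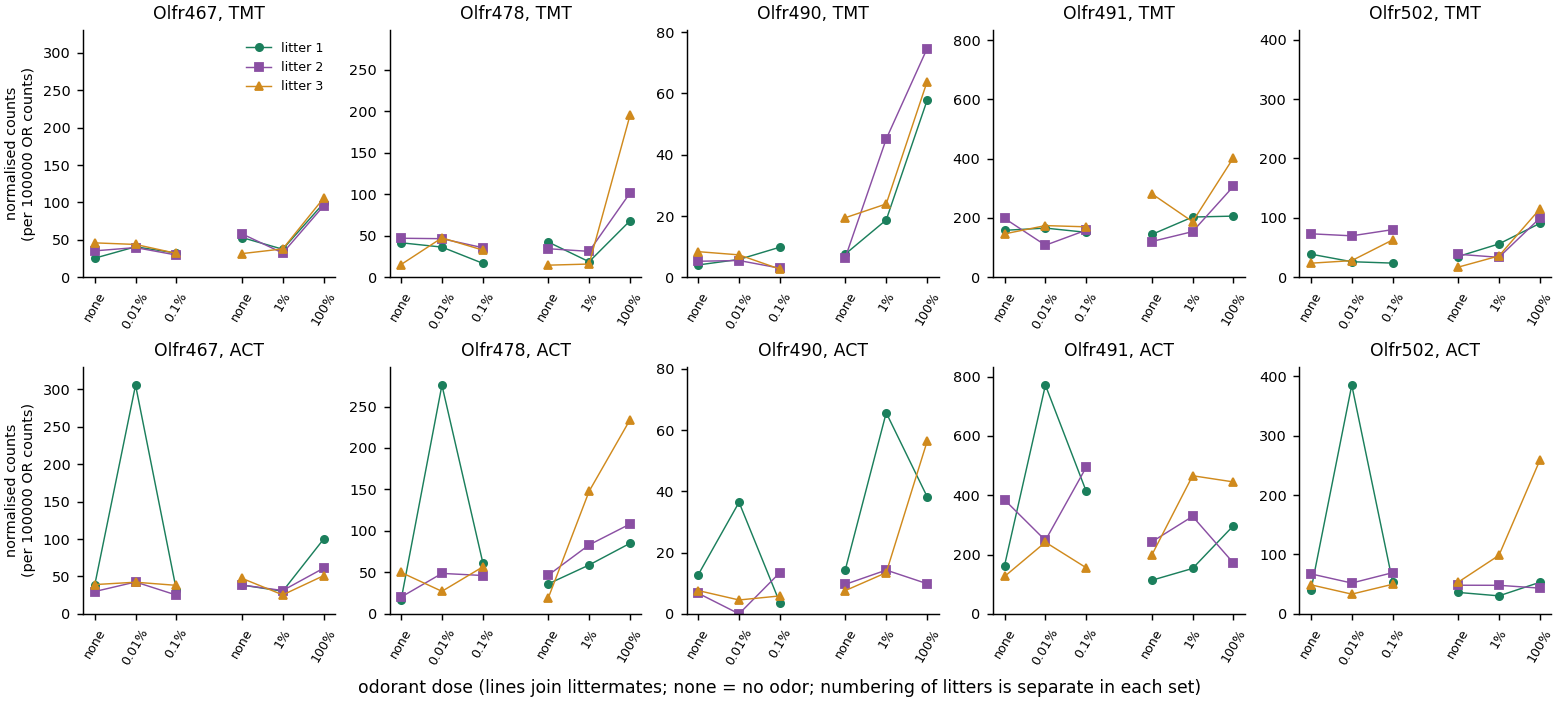
Normalized counts per 100000 OR counts of the 5 members that rose with 100% TMT, in each mouse, by dose of TMT and of ACT; lines join littermates and each set of 2 doses has its own no odor mice. With 100% TMT the 3 values of Olfr490 lie between 57.8 and 74.7, above the 3 no odor mice at 6.46 to 19.4; the 0.01% ACT mouse of litter 1 stands above all other mice in 4 of the 5 genes.

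At 1% TMT, 4.69% of all ORs rose and 0.184% fell, while 0 members passed in either direction with edgeR or DESeq2. At an unadjusted p below 0.05, 1 member was higher and 0 lower, against 73 and 28 of all 1088 ORs. That 1 member was Olfr490, with 18.7, 45.1 and 23.9 at 1% TMT, against 7.59, 6.46 and 19.4 without odor (1.36 ± 0.61, adjusted p = 0.357). At 0.1% TMT, where 1.38% of all ORs rose and 0.643% fell, 0 members passed. At an unadjusted p below 0.05 there were 0 members too, against 40 higher and 38 lower of all ORs. Olfr497 had the smallest p (1.66 ± 0.96, adjusted p = 0.826). At 0.01% TMT, where 0.368% rose and 0.0919% fell, 0 members passed (1 higher and 1 lower unadjusted, against 18 and 38 of all ORs). Olfr482 had 34.9, 15.0 and 29.3 with odor, against 14.8, 11.8 and 4.18 without (1.35 ± 0.57, adjusted p = 0.842).

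The comparison of 100% with 1% TMT, fitted over all 18 TMT libraries with litter as a block, gave 3 members higher and 2 lower at 100%, against 6.34% and 1.75% of all ORs. Olfr478 was higher at 100%, with 68.1, 101.6 and 195.2, against 18.7, 31.3 and 16.0 at 1% (2.41 ± 0.43, adjusted p = 2.5e-05). Olfr467 was higher, with 99.0, 95.4 and 105.8 at 100%, against 37.4, 32.4 and 37.9 at 1% (1.51 ± 0.36, adjusted p = 0.00192). Olfr502 was higher, with 90.8, 99.6 and 115.0 at 100%, against 56.2, 33.6 and 35.9 at 1% (1.35 ± 0.37, adjusted p = 0.00695). For all 3 the 100% group stood clear of the 1% group, and the values at 1% lay within the range of the no odor mice except for 1 mouse in Olfr502. Olfr490 differed by 1.18 ± 0.50 between 100% and 1% and did not pass (adjusted p = 0.154), so the step from 1% to 100% was not resolved for the member with the largest called rise at 100%. Olfr491 did not pass either (0.73 ± 0.25, adjusted p = 0.0531).

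The 2 members that were lower at 100% are neighbours and near-identical. Olfr476 had 24.8, 31.1 and 56.6 at 100%, against 77.5, 57.9 and 119.7 at 1% (-1.18 ± 0.37, adjusted p = 0.0266), and the no odor mice had 31.9, 51.6 and 121.6. Olfr477 had 148.5, 195.0 and 293.8 at 100%, against 361.0, 288.2 and 397.0 at 1% (-0.73 ± 0.24, adjusted p = 0.0465). The 100% values of Olfr476 thus lay partly within the no odor range. Both calls were lost without the replicate block, which left 3 higher and 0 lower members, and without any 1 litter, where 2 to 4 members were higher and 0 lower. The comparison of 0.1% with 0.01% TMT, in which 0.46% of all ORs rose and 0% fell, gave 0 members with edgeR and with DESeq2. Unadjusted, 0 members were higher and 3 lower in edgeR, against 28 and 12 of all ORs.

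With ACT, 1 member passed at 1 dose. At 1% ACT, where 1.38% of all ORs rose and 0.276% fell, Olfr478 had 58.9, 83.2 and 147.8, against 36.1, 46.6 and 19.0 in the no odor mice (1.44 ± 0.36, adjusted p = 0.00565), without overlap and higher in 3 of 3 litters. The call was lost in 7 of the 9 other fits, with adjusted p from 0.153 to 1 in these; it was lost without litter 2 (0.965), without litter 3 (0.67), with DESeq2 (0.773) and without the replicate block (0.389). At 100% ACT, where 0% of all ORs passed in either direction in edgeR's quasi-likelihood test, Olfr478 had 85.0, 108.3 and 234.0, against the same no odor mice (1.95 ± 0.49, adjusted p = 0.0987). This was the larger of the 2 changes, with less certainty. DESeq2 and the likelihood ratio test called it (adjusted p = 0.0275 and 0.00956), in fits that called 22 and 37 of the 1088 ORs higher. The study itself reported many ORs enriched at 100% ACT, so the 0% of the quasi-likelihood test does not mean that no OR responded. Without litter 1, edgeR called 5 members at 100% ACT (Olfr473, Olfr478, Olfr482, Olfr488 and Olfr494), where 82 of all ORs were higher and 5 lower.

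In those genes the 100% ACT mouse of litter 3, named above, stood above the others. Olfr488 had 106.3, 362.4 and 650.9 at 100% ACT, against 122.8, 168.8 and 81.7 without odor. Olfr494 had 34.0, 63.0 and 237.5 at 100% ACT, against 45.7, 40.2 and 22.8 without odor. Olfr473 had 23.4, 72.9 and 223.4 at 100% ACT, against 45.7, 22.5 and 57.0 without odor. In each of these 3 genes the mouse of litter 1 was below its littermate and the mouse of litter 3 far above. Olfr490, the largest riser with TMT, had 38.3, 9.85 and 56.3 at 100% ACT and 65.7, 14.3 and 13.4 at 1% ACT, against 14.4, 9.64 and 7.604 without odor, and passed at neither dose (1.50 ± 0.61, adjusted p = 0.271 at 100%, and 1.27 ± 0.61, adjusted p = 0.569 at 1%). Olfr502 had 53.2, 43.3 and 258.6 at 100% ACT, against 36.1, 48.2 and 53.2 without odor (0.93 ± 0.48, adjusted p = 0.425), with the litter 3 mouse far above the other 2. With all 3 litters 0 members passed in edgeR's quasi-likelihood test at 100% ACT. At an unadjusted p below 0.05, 5 were higher and 1 lower, against 114 and 41 of all 1088 ORs.

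At the 2 lower doses of ACT 0 members passed with edgeR or DESeq2. At 0.1% ACT, where 0.643% of all ORs rose and 0% fell, 2 members were higher at an unadjusted p below 0.05, as were 26 of all ORs. One was Olfr478, with 61.8, 46.3 and 56.6 at 0.1% ACT, against 16.5, 20.2 and 50.0 without odor (1.05 ± 0.37, adjusted p = 0.988), and the other was Olfr491, with 412.8, 495.2 and 155.3, against 162.8, 384.7 and 126.1 (0.69 ± 0.26, adjusted p = 1). At 0.01% ACT 0% of all ORs passed in either direction in edgeR's quasi-likelihood test. There, 1 member was higher at an unadjusted p below 0.05, as were 18 of all ORs. That member was Olfr482, with 130.1, 24.0 and 31.7 at 0.01% ACT, against 10.2, 12.5 and 17.4 without odor (1.79 ± 0.66, adjusted p = 1). In edgeR's quasi-likelihood test 100% against 1% ACT called 0 members and 0% of all ORs, and so did 0.1% against 0.01% ACT. Unadjusted, the first gave 4 members higher and 2 lower, against 90 and 48 of all ORs. The second gave 0 members higher and 3 lower, against 30 and 36 of all ORs. DESeq2 called 0 in the first and 1 in the second, Olfr503 lower, which rests on 17 counts in all. Without litter 1, 3 members were higher at 100% than at 1% ACT (Olfr473, Olfr488 and Olfr494), as were 61 of all ORs.

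The 0.01% ACT mouse of litter 1 carried 7 members to their highest value of all 36 libraries. Olfr467 had 305.7 there, against at most 105.8 in the other 35 libraries, and Olfr502 had 385.1, against at most 258.6. Olfr491 had 771.5, against at most 495.2, and Olfr510 had 96.3, against at most 41.5. The remaining 3 were Olfr473, Olfr478 and Olfr482. Of the 7, 4 are dorsal members (Olfr467, Olfr478, Olfr482 and Olfr510), 1 is ventral (Olfr473) and 2 were not called for zone. Olfr467, Olfr478, Olfr491 and Olfr502 are also risers with 100% TMT. At 0.01% ACT 0 members passed with this library or without it. Without it Olfr488 was called between 100% and 1% ACT (1.75 ± 0.43, adjusted p = 0.0382) and 0 other members were, while 32 of all ORs were higher and 4 lower.

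The responses to the 2 odorants were set against each other at each dose as the difference of the 2 changes. At 0.01%, 1% and 100%, 0% of all ORs differed in either direction in edgeR's quasi-likelihood test, and at 0.1% 0.184% were higher and 0.276% lower for ACT. No member was called at any dose, with 0 passing in edgeR and in DESeq2. DESeq2 called 8 of all ORs higher and 6 lower for ACT at 100%. At an unadjusted p below 0.05, edgeR gave 0 members at 0.01% and at 1%. It gave 1 higher and 1 lower at 0.1%, against 23 and 20 of all ORs. At 100% it gave 3 higher and 0 lower, against 62 and 56 of all ORs. For Olfr478 the change with ACT minus that with TMT was 0.01 ± 0.97 at 100% and 1.88 ± 0.97 at 1% (adjusted p = 1 in both). For Olfr490 it was -0.96 ± 1.16 at 100% (adjusted p = 0.859). At ± 2 SE the 100% difference for Olfr478 runs from -1.92 to 1.95 on the log2 scale, so equal responses were not shown. Without litter 1, Olfr473 (2.50 ± 0.67, adjusted p = 0.0183) and Olfr488 (1.91 ± 0.58, adjusted p = 0.0393) were higher for ACT at 100%, among 26 higher and 35 lower of all ORs.

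**Figure D4:**
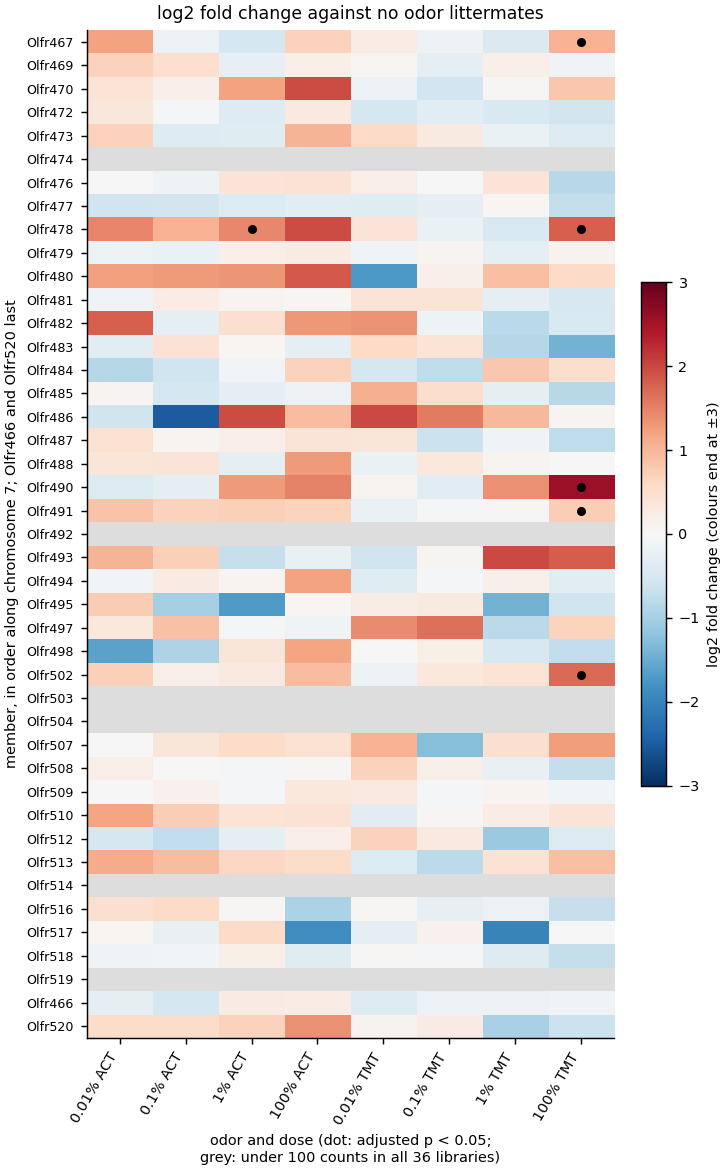
Log2 fold change of each member against no odor littermates for the 4 doses of ACT and of TMT (columns), colours ending at ±3; dots mark adjusted p below 0.05 and grey marks 6 members with under 100 counts over all 36 libraries. The dots are the 5 members at 100% TMT and Olfr478 at 1% ACT.

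As a whole the 43 members took a small share of OR counts. In the 12 no odor libraries the share ran from 2.02% to 3.25% (median 2.26%), and over all 36 pS6-IP-Seq libraries from 1.59% to 3.66%. It was 1.93% ± 0.12 with 100% TMT, against 2.54% ± 0.64 in its no odor mice (SD, n = 3 each), a difference within the spread of the no odor mice, although the share was lower than in the littermate in 3 of 3 litters (1.81% against 2.36%, 1.93% against 2.02% and 2.04% against 3.25%). With 100% ACT it was 2.79% ± 0.84, against 2.23% ± 0.19 in its no odor mice, and the ranges overlapped. Dorsal mucosa had 2.49% ± 0.15, against 1.40% ± 0.06 in ventral mucosa, and the lowest dorsal library (2.33%) was above the highest ventral one (1.47%). No test was run on these shares, since they sum over genes that moved in both directions.

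**Figure D5:**
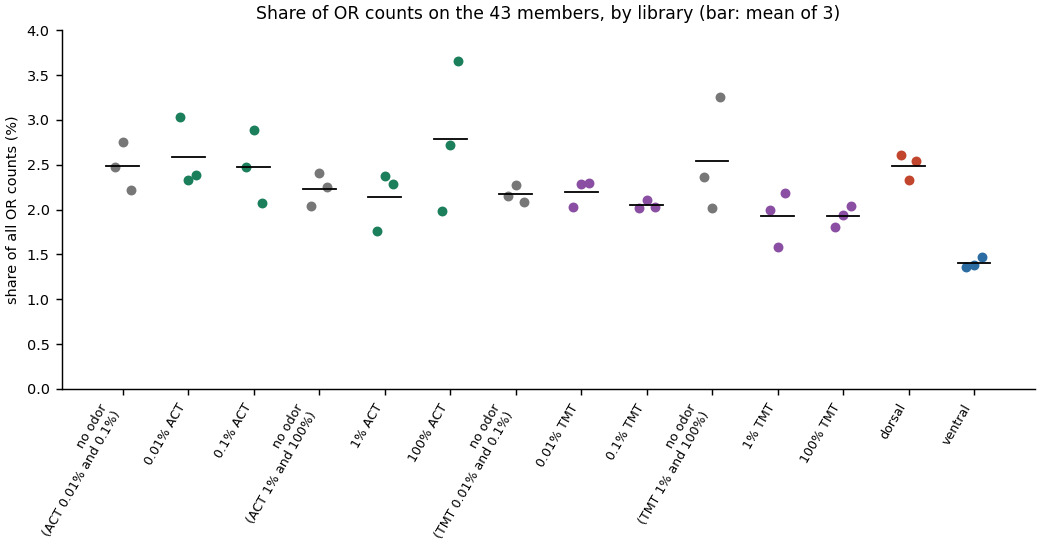
Share of all OR counts that fell on the 43 members, in percent, in each library (points) with the mean of 3 (bars), for each group of mice and for dorsal and ventral mucosa. The 12 no odor libraries lie between 2.02% and 3.25%; the 3 dorsal libraries lie above the 3 ventral ones.

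The members' own order differed between the 2 experiments. Among the counts on the 43 members, Olfr477 had a median of 16.0% in the 12 no odor libraries (10.9% to 29.3%), but 0.316% in dorsal and 4.22% in ventral mucosa. Olfr472 had a median of 15.1% without odor (8.84% to 28.8%), 0.886% in dorsal and 12.99% in ventral mucosa. Olfr488 ran the other way, with 3.93% without odor (2.12% to 8.27%), 21.1% in dorsal and 5.74% in ventral mucosa. The precipitate of unexposed mice was thus taken up more by Olfr477 than either part of the mucosa was; the 2 experiments differ in tissue and method, and which of these goes with the order was not tested. Olfr477 and Olfr472 were also the members that reached the 10 most counted ORs of a library, each in 1 no odor mouse. Olfr472 reached 906.8 there, in litter 3 of the no odor mice for 1% and 100% TMT, against 247.5 and 163.6 in the other 2 mice of that group.

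Several members were hardly seen in the precipitate. Olfr504 had no count in any library, Olfr514 had 4 counts over 36 pS6-IP-Seq libraries, Olfr474 14, Olfr503 17 and Olfr519 21. For the first 4 mucosa was no better, with 0 to 7 counts over 6 libraries. Olfr519 had 382 counts there, with 70.2, 41.8 and 94.8 normalized counts in dorsal, against 3.89, 6.45 and 6.55 in ventral mucosa (3.55 ± 0.64, adjusted p = 2.92e-04). Its near-identical partner Olfr516 had 121.7, 87.3 and 132.0 in dorsal, against 6.32, 13.3 and 11.1 in ventral mucosa (3.49 ± 0.63, adjusted p = 2.76e-04). The 2 genes moved alike between zones, while in the precipitate Olfr519 was at 0 in 21 of 36 libraries, and how reads were divided between them bears on both values. Responses of these 5 members to odor were not detectable at this depth. Over all comparisons 30 of 43 members (69.8%) passed at least once, against 79.4% of all ORs, and 13 never did. Leaving out the zones, 7 members (16.3%) passed at least once, against 18.6% of all ORs.

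Olfr506, which was left out of the members although its name is in the range, lies within the cluster and shares sequence with members. It had 408.5, 568.3 and 708.0 normalized counts with 100% TMT, against 77.5, 62.4 and 53.5 without odor. Runs were measured with Olfr482, Olfr478 and Olfr490 only, and the longest identical run was 189, 94 and 68 bases. Other members share sequence with Olfr506 too. The number of shared 50-base stretches was 177 for Olfr482, 46 for Olfr478, 37 each for Olfr493 and Olfr507, 35 for Olfr469, 27 for Olfr494 and 19 for Olfr490. At 100% TMT Olfr482, which has the longest of these runs, had 6.19, 37.3 and 23.7, against 15.2, 40.9 and 26.7 without odor. Its values thus overlapped where those of Olfr506 did not. In the 0.01% ACT mouse of litter 1 Olfr506 had 1331.0, against 51.9 and 42.3 in the other 2 mice of that dose, and Olfr478 and Olfr482 were at their highest there too. The part of Olfr506 reads in the values of these genes was not tested.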

How the data were processed

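The pS6-IP-Seq and mucosa reads carry no strand (SMART-Seq v4, Nextera XT). The authors mapped them with STAR to GRCm38 and estimated counts with RSEM, using Ensembl 96 with ORs extended to their UTRs; the deposited counts are rounded to whole numbers and list intact ORs only. Columns with the authors' own comparisons (fold changes, p-values) were not used. The labels describe immunoprecipitation for the dorsal and ventral libraries and the study total RNA; the study used 3 mice for these 6 libraries, and which libraries come from one mouse is not given in the sources used here. The 12 no odor libraries stand in 2 tables each, with identical values, and were counted once.

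Each dose was compared with its no odor mice in edgeR 4.0.16 (glmQLFit robust, glmQLFTest), with TMM over ORs, no filter, the replicate number as a block as in the study, and Benjamini-Hochberg adjustment over all ORs. Dose contrasts were fitted over the 18 libraries of an odorant. SE is the log2 fold change divided by the square root of F. Replicate numbers mark same-sex litters. Libraries of one number had median correlations of 0.109 to 0.157 in the 4 pS6 sets, against -0.068 to -0.048 for different numbers. These are correlations of deviations from means of 3 libraries, so the second range follows largely from the first. P-values measure the spread between these libraries. Alternatives were DESeq2 1.42.0, the likelihood ratio test, no TMM, a filter (10 counts in 3 libraries), no block, a joint fit and each litter left out. The tests were also run on simulated data, after the real fits and with the spread taken from them.

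Proteins were translated from GENCODE M21, in place of the RefSeq proteins planned, and aligned in Biopython 1.88 (BLOSUM62). The members and lists were chosen with earlier results of these data known. Named genes are the 30 members called at least once, those with the smallest p of a comparison, and Olfr503, Olfr504 and Olfr513; others (Olfr506, Olfr487, Olfr498 and members with few counts) were chosen after their values were seen.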

Additional observations from a re-analysis of the deposited data

Results flagged for a closer look

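For 5 members the change with TMT differed between 100% and 1%, by a test of the difference itself over the 18 TMT libraries with litter as a block. The log2 difference of 100% over 1% was 2.41 for Olfr478, 1.51 for Olfr467 and 1.35 for Olfr502, higher at 100%, and -1.18 for Olfr476 and -0.73 for Olfr477, lower at 100%. Olfr467 and Olfr478 passed in each of the 8 other fits. Olfr502 passed in 6 of 8, Olfr476 in 4 and Olfr477 in 3. Groups held 3 mice, too few for a check of single mice that stand apart within a group.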

How the results depend on the processing

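Counts below are members called in either direction. Of the alternative values of the comparisons, 185 stayed within 1.5 times the count or within 1 SD of the share as first given, and 32 did not; no called member changed direction. Leaving out 1 litter or library number gave 16 to 29 members between dorsal and ventral mucosa, 2 to 6 at 100% TMT, 2 to 4 between 100% and 1% TMT, 0 to 1 at 1% ACT, 0 to 5 at 100% ACT, 0 to 3 between 100% and 1% ACT and 0 to 2 for ACT minus TMT at 100%. Without the replicate block there were 3 members at 100% TMT, 3 between 100% and 1% TMT and 0 at 1% ACT. Between the zones there were 29. There the counts show no pairing by number (median correlation -0.333 for the same number), and the 0.207 for different numbers follows largely from that value. DESeq2 gave 3 at 100% TMT, 0 at 1% ACT, 1 at 100% ACT and 1 between 0.1% and 0.01% ACT (Olfr503, lower, which has 17 counts in all). The likelihood ratio test gave 1 at 100% ACT and 0 at 1% ACT, and 1% ACT was also at 0 with the filter on low counts and with all ACT libraries fitted together. Without the 0.01% ACT library of litter 1, a choice made after seeing the data, 1 member was called between 100% and 1% ACT. The cause of these moves was not tested. Without the 10 ORs with the most counts, the share of OR counts was 3.06% at 0.01% ACT, 2.48% at 1% ACT and 2.57% in the no odor mice of 1% and 100% ACT. It was 2.53% at 0.01% TMT, 2.39% at 0.1% TMT and 2.54% in their no odor mice. It was 2.27% at 1% TMT, 2.29% at 100% TMT and 2.545% in their no odor mice, and 2.77% in dorsal and 1.56% in ventral mucosa. The 6 members with under 100 counts in 36 libraries set the limit of depth.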
